A study of Mus musculus with 45 samples.

Results

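The genes described here belong to cholesterol export and lipid sensing, and were followed across lung phagocytes of the mouse: Nr1h3, Abca1, Abcg1, Mylip, Apoe, Apoc1, Apoc2 and Trem2. They were chosen by name, with earlier results of these data known, so counts of them beside shares of all genes are only a description. They are 8 of the 23594 rows of a table of TPM values (transcript levels scaled for length and for the library). All 8 passed the filter on low values that left 8937 genes to test. The 27 libraries came from 3 cell types sorted from lungs of C57BL/6J mice, namely alveolar macrophages (AM), macrophages of the lung interstitium (IM) and monocytes labelled as inflammatory (iMo), either at 0h of lipopolysaccharide (LPS, the endotoxin of Gram-negative bacteria) or at 2h, 6h or 20h after LPS was given intraperitoneally (ip). AM were sequenced 4 times at 0h, 2 times at 2h, 3 times at 6h and 2 times at 20h, and each of the 8 groups of IM and iMo held 2 libraries. No allele or transgene is named for any group. The labels used here give neither the age or sex of the mice nor the LPS dose, nor whether the 0h mice received an injection. They do not say whether libraries of 1 group came from separate mice, so the p-values measure only the spread between these libraries, which may be technical.

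Nr1h3 encodes LXR alpha, a nuclear receptor that binds oxysterols and, as a heterodimer with RXR, switches on genes that move cholesterol out of macrophages. Its textbook targets in macrophages include the exporters Abca1 and Abcg1, the ubiquitin ligase Mylip, which limits lipoprotein uptake, and the apolipoprotein cluster Apoe, Apoc1 and Apoc2, whose proteins carry or modulate lipoprotein lipid. Trem2 encodes a surface receptor for lipids and apolipoprotein E that signals through the adaptor Tyrobp.

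The positions are those of the mouse build GRCm38 (mm10). Nr1h3 lies on chromosome 2 from 91184061 to 91202829, Abca1 on chromosome 4 from 53030789 to 53159988, and Mylip on chromosome 13 from 45389742 to 45411940. Abcg1 (31057694 to 31117984) and Trem2 (48346401 to 48352276) are both on chromosome 17. The 3 apolipoprotein genes form a cluster on chromosome 7, with Apoc2 at 19671579 to 19677941, Apoc1 at 19689480 to 19692659 and Apoe at 19696244 to 19701310.

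Promoter sequences of RefSeq (GRCm38.p6), 250 bases before to 50 bases after an annotated start, were matched by symbol for 6 of the 8 genes, in 9 entries. Abcg1 and Apoc1 had no entry. LXR and RXR bind direct repeats of an AGGTCA-like hexamer, so these entries were searched on both strands for AGGTCA, for the strict direct repeat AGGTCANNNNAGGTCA and for the relaxed repeat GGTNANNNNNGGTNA; a strict repeat also holds the single hexamer. The 4 promoters below are those of the receptor itself and of the 3 genes that held a match. Capitals mark the match, and a sequence without capitals held none. They are chr2:91194986-91195285 (minus strand) for Nr1h3, chr4:53159846-53160145 (minus strand) for Abca1, chr7:19677892-19678191 (minus strand) for Apoc2 and chr17:48346151-48346450 (plus strand) for Trem2. Nr1h3 had another entry, chr2:91195067-91195366, also without a match. Both Nr1h3 entries lie inside the gene as placed above, and no entry covered its outer start side at 91202829.
Nr1h3: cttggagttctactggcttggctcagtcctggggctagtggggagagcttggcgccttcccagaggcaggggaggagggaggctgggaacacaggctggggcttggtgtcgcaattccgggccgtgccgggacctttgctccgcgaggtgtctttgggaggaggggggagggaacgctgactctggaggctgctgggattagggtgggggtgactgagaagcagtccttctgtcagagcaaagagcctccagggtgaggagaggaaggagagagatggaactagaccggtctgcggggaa
Abca1: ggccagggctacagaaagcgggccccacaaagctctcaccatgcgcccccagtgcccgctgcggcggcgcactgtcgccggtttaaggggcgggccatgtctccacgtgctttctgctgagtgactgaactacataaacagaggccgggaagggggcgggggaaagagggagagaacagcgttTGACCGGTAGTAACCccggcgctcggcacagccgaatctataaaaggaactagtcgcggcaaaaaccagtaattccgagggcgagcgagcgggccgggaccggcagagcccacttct
Apoc2: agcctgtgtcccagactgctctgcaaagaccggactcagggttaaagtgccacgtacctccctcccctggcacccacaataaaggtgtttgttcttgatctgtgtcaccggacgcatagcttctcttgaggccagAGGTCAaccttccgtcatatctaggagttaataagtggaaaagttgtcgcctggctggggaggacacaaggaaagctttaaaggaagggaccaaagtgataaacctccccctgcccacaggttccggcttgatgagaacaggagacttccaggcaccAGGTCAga
Trem2: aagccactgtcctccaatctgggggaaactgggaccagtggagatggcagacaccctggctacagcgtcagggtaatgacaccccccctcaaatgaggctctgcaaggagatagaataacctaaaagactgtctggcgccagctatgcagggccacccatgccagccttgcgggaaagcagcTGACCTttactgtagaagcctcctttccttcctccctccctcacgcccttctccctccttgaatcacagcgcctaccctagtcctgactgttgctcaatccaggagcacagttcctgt
The Abca1 promoter held the relaxed repeat on the opposite strand, from -67 to -53 relative to the start, where the match reads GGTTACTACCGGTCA. Of all 32851 promoters in the RefSeq table, 0.718% held it. The single hexamer AGGTCA occurred in Apoc2 from -115 to -110 and from 42 to 47, and in Trem2 on the opposite strand from -68 to -63, and 16.3% of all promoters held it. The strict repeat was in 0.0152% of all promoters and in none of the 9 entries of these genes. A match of letters is not a binding site, and no binding was measured here.

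The cell type labels were set against defining markers. AM libraries held the 15 alveolar markers at a summed level of 4543 to 17708 TPM, against 421 to 2156 TPM in IM and 646 to 1159 TPM in iMo, although all 15 were at 1 TPM or more in some IM and iMo libraries as well. Siglecf in AM was between 43.9 and 228 TPM, against at most 8.11 TPM in IM and 2.19 TPM in iMo. IM libraries at 0h held the complement gene C1qa at 1077 and 973 TPM, but at 18.1 to 59.0 TPM at 2h and 6h and again at 324 and 328 TPM at 20h. The same IM libraries held neutrophil markers (11 genes) at a summed level of 11241 to 56978 TPM, with the neutrophil surface marker Ly6g at 4.48 to 63.6 TPM, and at 0h also endothelial markers at 578 to 778 TPM, against 21 to 49 TPM after LPS, and lung epithelial markers at 349 to 714 TPM, against 20 to 59 TPM. IM libraries also held the 8 classical monocyte markers, summing to 3452 to 6433 TPM at 0h, 5516 to 9631 TPM at 2h, 3757 to 9330 TPM at 6h and 3280 to 3646 TPM at 20h, with the monocyte surface marker gene Ly6c2 at 452 to 2048 TPM. iMo libraries held C1qa at no more than 7.84 TPM until 6h and at 249 and 252 TPM at 20h, while their summed monocyte markers went from 8880 to 13244 TPM at 0h to 2502 to 3283 TPM at 20h and their summed neutrophil markers from 135 to 217 TPM to 2906 to 2932 TPM. The part of these markers in the results below was not tested. In bulk libraries of sorted cells, fewer cells of a type and less RNA per cell cannot be told apart.

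One AM library stood apart, the 20h library with the title label A161219. It held C1qb at 416 TPM, where the other 10 AM libraries held 0.708 to 6.96 TPM, and Apoe at 2933 TPM, where the other 10 held 13.3 to 93.1 TPM. Its alveolar markers summed to 4543 TPM, the lowest of the AM libraries, against 12043 TPM in the other 20h library, and its interstitial markers to 1080 TPM against 227 TPM. Calls that rest on it are given with and without it.

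**Figure D1:**
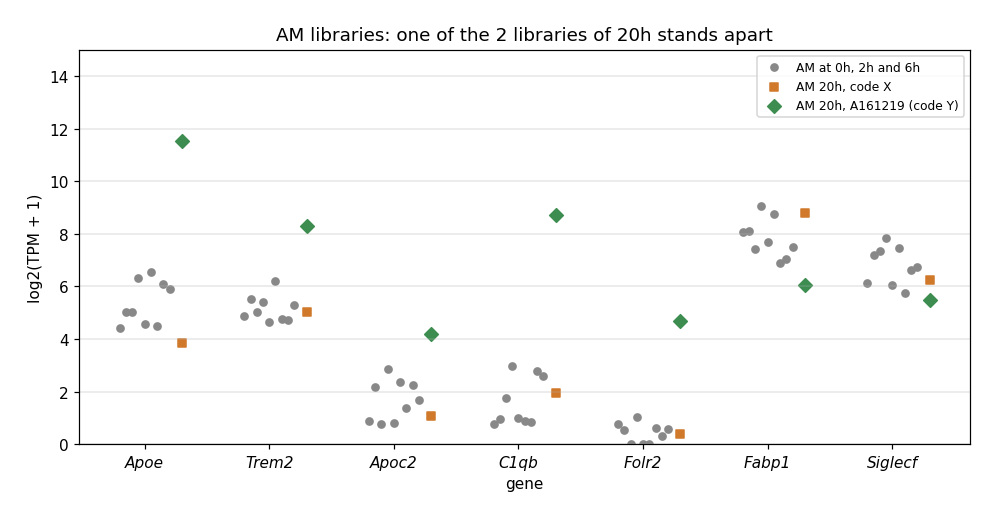
Levels of Apoe, Trem2 and Apoc2 and of 4 marker genes in the 11 AM libraries, as log2(TPM + 1); grey points are the 9 libraries of 0h, 2h and 6h, the square and the diamond the 2 libraries of 20h. The diamond, A161219, lies above every other AM library for Apoe, Trem2, Apoc2, C1qb and Folr2 and below every other for Fabp1 and Siglecf.

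Log2 values below are of TPM + 1, a scale that understates the change of low genes. Each log2 fold change is given less the median of all 8937 genes in the same comparison, because that median was not 0: it lay at -0.79 for IM at 2h against 0h, the lowest of the 30 comparisons, and at 0.65 for IM at 20h against 2h, the highest. The tests themselves (limma, Benjamini-Hochberg adjustment within a comparison, called at an adjusted p under 0.05) were run on the values before this subtraction. Titles carry a numeric code that the labels do not explain, here called X (libraries with no letter before the code), Y (A161219 and B161219) or Z (A171227 to D171227). Every 0h library of IM and iMo had code Z and every ip library X or Y. Within IM and iMo, code and LPS therefore cannot be told apart except through the single AM library of 0h with code X. The share of all TPM taken by the ribosomal RNA gene Rn45s moved with the code, with medians of 29.6%, 11.9% and 6.27% in X, Y and Z, and its part in the results was not tested beyond the rescaling without it in the closing section. For the genes chosen by name at the start, a fit that adds this code is given beside each difference from 0h that it ended. No such fit is given for the other genes below, such as Acp2, Lpl or Tyrobp. Whether their differences from 0h hold with the code added was not tested. Comparisons with 0h share the 0h libraries of their cell type, and comparisons with AM share the AM libraries.

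**Figure D2:**
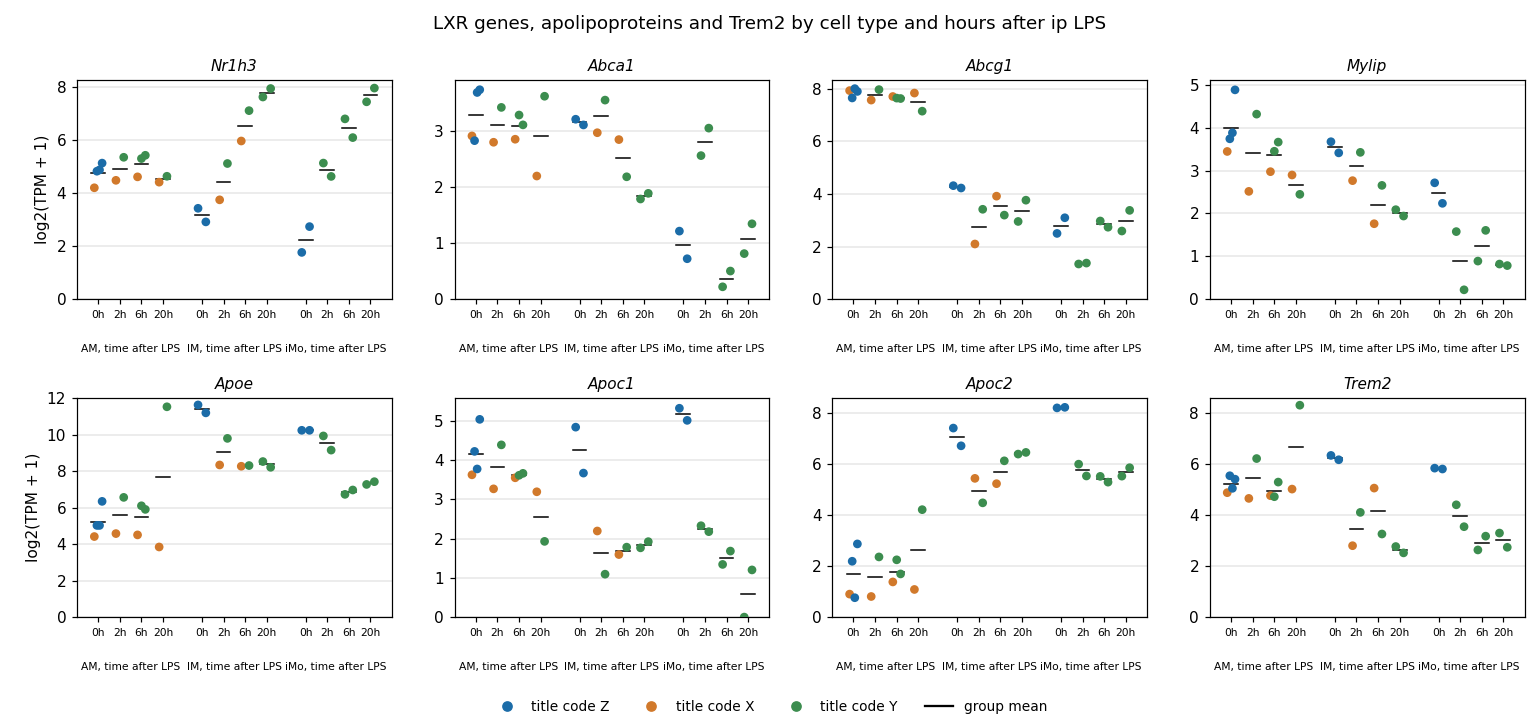
The 8 genes in all 27 libraries as log2(TPM + 1), by cell type and hours after ip LPS; each point is a library coloured by title code, and each bar a group mean. Nr1h3 climbs in IM and iMo from 0h to 20h and stays between 17.4 and 42.1 TPM in AM. Apoe, Apoc1, Apoc2 and Trem2 are lower in all ip libraries of IM and iMo than in their 0h libraries.

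Nr1h3, the receptor, rose at each time after LPS in both IM and iMo. In IM it was at 9.77 and 6.55 TPM at 0h, 12.4 and 33.8 TPM at 2h, 61.7 and 138 TPM at 6h, and 197 and 246 TPM at 20h. In iMo it was at 2.40 and 5.67 TPM at 0h, 34.2 and 23.8 TPM at 2h, 111 and 67.5 TPM at 6h, and 174 and 249 TPM at 20h. No ip library of either cell type overlapped its 0h libraries, and in both the libraries of 20h lay above all those of 6h, and those of 6h above all those of 2h. The mean at 20h was 27.2 times that at 0h in IM and 52.4 times in iMo. These are log2 differences of 4.71 (SE 0.49, adjusted p = 8.73e-07, limma) and 5.77 (SE 0.49, adjusted p = 1.79e-07). Against 0h, Nr1h3 differed by 3.90 at 6h in IM (adjusted p = 2.38e-05), and by 3.06 at 2h (adjusted p = 0.000303) and 4.68 at 6h (adjusted p = 2.71e-06) in iMo. The call at 2h in IM, 2.06 (adjusted p = 0.0369), was lost when library A161219 of IM at 2h was left out (1.64, adjusted p = 0.385) and in the fit that adds the title code (1.95, adjusted p = 0.0519). That call of IM at 2h held in 4 of the 13 settings tried for it. With the title code added, the limma differences at 20h were 4.34 in IM (adjusted p = 0.000127) and 5.40 in iMo (adjusted p = 4.3e-05). Beside this, C1qa in iMo was at no more than 7.84 TPM until 6h and at 249 and 252 TPM at 20h, and the summed neutrophil markers of iMo were at 2906 to 2932 TPM at 20h against 135 to 217 TPM at 0h; their part in the rise was not tested.

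The rise continued between the ip times, where title code does not separate the groups in iMo: all 6 ip libraries of iMo share code Y. Nr1h3 was higher at 20h than at 2h by 2.69 in iMo (SE 0.49, adjusted p = 0.000189, limma) and by 2.71 in IM (SE 0.49, adjusted p = 2.99e-05). From 2h to 6h it rose by 1.91 in IM (adjusted p = 0.0092), which was lost without the code X library of 2h (1.48, adjusted p = 0.151) or without A161219 of 6h (1.51, adjusted p = 0.153). The same step in iMo was at the threshold (1.65, adjusted p = 0.0492) and was lost on leaving out any of its 4 libraries or A161219 of AM at 20h (adjusted p = 0.0529). From 6h to 20h neither cell type passed the test, at 0.83 in IM (adjusted p = 0.134) and 1.06 in iMo (adjusted p = 0.152).

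AM had the most Nr1h3 at 0h and the least at 20h. Its 0h libraries held 17.4, 27.4, 28.4 and 34.1 TPM, above both IM and both iMo libraries. IM was lower than AM at 0h by a log2 difference of -1.59 (SE 0.43, adjusted p = 0.00598, limma), a call lost without the IM library B171227 (-1.32, adjusted p = 0.118), and iMo by -2.66 (adjusted p = 5.32e-05). At 2h the 3 cell types overlapped, with no call between any pair. At 6h, IM (1.81, adjusted p = 0.0156) and iMo (1.56, adjusted p = 0.0271) were above AM, whose libraries held 23.5, 38.6 and 42.1 TPM; both calls were lost without the code X library of AM (1.65 and 1.40, adjusted p = 0.0645 and 0.106) or without the A161219 library of IM (1.43, adjusted p = 0.253) or iMo (1.30, adjusted p = 0.224). At 20h AM held 20.3 and 23.9 TPM and both other types were above it by 3.02 (SE 0.49, adjusted p = 2.16e-05 for IM and 4.37e-05 for iMo). Ordered by mean, the 12 groups ran from IM and iMo at 20h (222 and 212 TPM, overlapping) through IM and iMo at 6h (99.7 and 89.2 TPM, overlapping) to a run of 6 groups between 34.7 and 22.1 TPM that overlapped from each to the next, and ended with IM (8.16 TPM) and iMo (4.03 TPM) at 0h.

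A pair of genes beside Nr1h3 on chromosome 2 had the pattern most like it over the 27 libraries, which share their groups: Acp2, encoding a lysosomal acid phosphatase (Pearson r = 0.94), and Ddb2, encoding a DNA damage recognition protein (r = 0.94). The third was Psmd3, a proteasome subunit (r = 0.81). Acp2 overlaps Nr1h3 by 18 bases at the higher coordinates of Nr1h3, the start side of this minus strand gene. Ddb2 overlaps Acp2 by 2554 bases. Strand is not stated for the counting, so reads from overlapping genes cannot be told apart and the share of such reads in Acp2 was not measured. Acp2 rose at 20h by 2.62 in IM (adjusted p = 7.2e-05, limma) and 3.17 in iMo (adjusted p = 2.7e-05), and Ddb2 by 2.14 (adjusted p = 0.000954) and 2.52 (adjusted p = 0.000512). Madd, which lies 54 bases from the other end of Nr1h3, was not called at 20h against 0h, at 1.02 in IM (adjusted p = 0.114) and 1.13 in iMo (adjusted p = 0.119). Acp2, Ddb2 and Madd were taken up for their position after their values were seen.

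**Figure D3:**
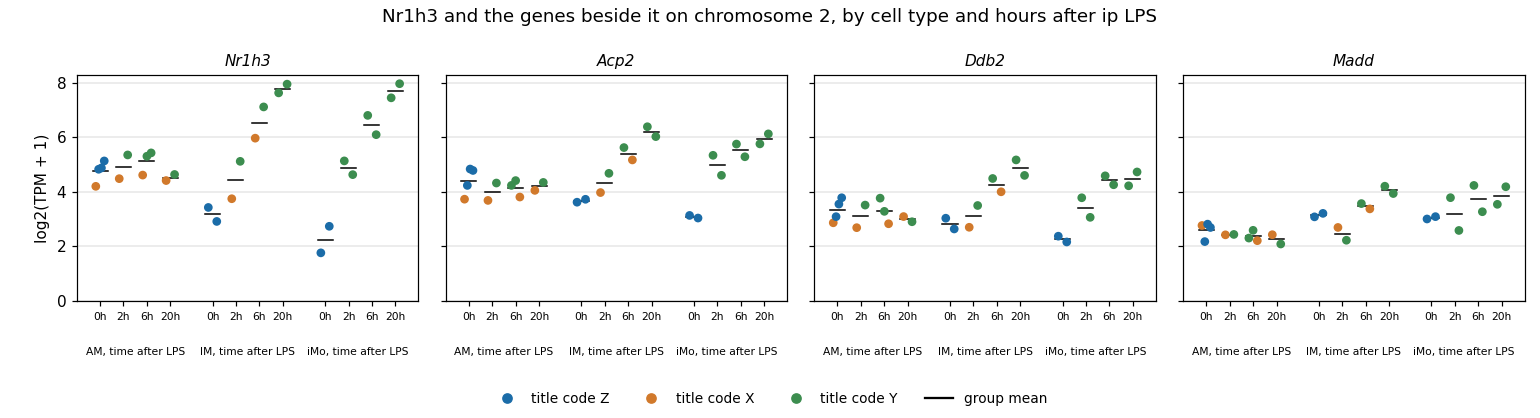
Nr1h3 and the neighbouring genes Acp2, Ddb2 and Madd in the 27 libraries, as log2(TPM + 1) by cell type and hours after ip LPS, coloured by title code, with a bar at each group mean. Acp2 and Ddb2 follow the climb of Nr1h3 in IM and iMo at smaller size, with log2 differences at 20h of 2.14 to 3.17.

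Neither exporter was called higher at 20h than at 0h in IM or iMo, where the receptor rose. Both exporters rose in iMo between some of the times, as given below. Abcg1, which passes cholesterol to mature HDL, was an AM transcript at every time: the 11 AM libraries held 140 to 255 TPM (median 207 TPM), the 8 IM libraries 3.27 to 18.9 TPM (median 11.1 TPM) and the 8 iMo libraries 1.52 to 9.37 TPM (median 5.33 TPM). No AM library overlapped any other. IM was below AM by log2 differences of -3.60 at 0h (SE 0.36, adjusted p = 4.13e-08, limma), -4.24 at 2h, -3.72 at 6h and -4.37 at 20h, and iMo by -5.22, -6.12, -4.58 and -4.67 at the same times. All 8 were called under each alternative tried and on leaving out each library of the groups compared. At 0h the fold between the means was 12.8 for AM over IM and 38.3 for AM over iMo.

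Within IM, Abcg1 was at 18.9 and 17.7 TPM at 0h and at 3.27 to 14.1 TPM in the 6 ip libraries, which did not overlap. The difference at 2h, -0.72 less the median, was called (adjusted p = 0.00437) and was lost with the title code added (-1.24, adjusted p = 0.0774), with quantile normalization (-0.76, adjusted p = 0.141) and without the code X library of IM at 2h (-0.36, adjusted p = 0.149). In iMo, Abcg1 went from 4.65 and 7.53 TPM at 0h to 1.52 and 1.59 TPM at 2h and back to 6.84 and 5.65 TPM at 6h and 5.02 and 9.37 TPM at 20h. The fall at 2h was -1.02 (adjusted p = 0.00967) and was lost with the title code added (-1.40, adjusted p = 0.159) or with quantile normalization (-0.89, adjusted p = 0.089). The return, inside code Y, was 1.58 from 2h to 6h (adjusted p = 0.0233, limma) and 1.49 from 2h to 20h (adjusted p = 0.00539). The first was lost on leaving out any of its 4 libraries, and the second without B161219 at 20h (1.10, adjusted p = 0.101).

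Abca1, which passes cholesterol to lipid-poor apolipoprotein A1, was low everywhere, at most 12.4 TPM. In iMo it had a short peak: 1.32 and 0.649 TPM at 0h, 4.91 and 7.30 TPM at 2h, 0.165 and 0.416 TPM at 6h, and 0.757 and 1.54 TPM at 20h. Both libraries of 2h lay above all other iMo libraries, and both of 6h below all others. The rise at 2h was 2.27 (SE 0.42, adjusted p = 0.00192, limma), and 2.06 with the title code added (adjusted p = 0.0781). The fall from 2h to 6h, within code Y, was -2.36 (SE 0.42, adjusted p = 0.00063) and was called under every alternative and on leaving out each of its libraries. In IM, Abca1 was at 8.27 and 7.64 TPM at 0h, 6.84 and 10.7 TPM at 2h, 6.21 and 3.55 TPM at 6h, and 2.45 and 2.70 TPM at 20h. It fell from 2h to 20h by 2.07 (SE 0.42, adjusted p = 0.0107), a call lost without IM A161219 at 2h (-2.05, adjusted p = 0.0812) or without either library of 20h. The difference at 20h from 0h (-1.23, adjusted p = 0.0396) was lost with the title code (-1.43, adjusted p = 0.424) and in 4 of 4 leave-one-out fits.

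Between cell types, Abca1 was lower in iMo than in AM at 0h (-2.47, SE 0.37, adjusted p = 2.03e-05, limma) and at 6h (-2.50, adjusted p = 6.99e-06), and lower in iMo than in IM at 0h (-2.34, adjusted p = 0.000774) and at 6h (-2.26, adjusted p = 0.00338). At 2h, during the iMo peak, no pair was called and the libraries overlapped. At 20h iMo was lower than AM by -1.99 (adjusted p = 0.00299), and by -1.13 without AM A161219 (adjusted p = 0.118). Between IM and AM no time gave a call.

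Mylip was lowest in iMo. The 11 AM libraries held 4.45 to 28.5 TPM (median 9.94 TPM), the 8 IM libraries 2.39 to 11.8 TPM and the 8 iMo libraries 0.163 to 5.57 TPM. iMo was below AM by -1.66 at 0h (SE 0.45, adjusted p = 0.0129, limma), -2.23 at 2h (adjusted p = 0.000466), -1.89 at 6h (adjusted p = 0.00141) and -2.03 at 20h (adjusted p = 0.0138). The calls at 2h and 6h held under every alternative. That at 0h was lost without iMo B171227 (-1.46, adjusted p = 0.154), and that at 20h without the code X library of AM (-1.95, adjusted p = 0.12) or without either iMo library. Within iMo, Mylip fell from 5.57 and 3.71 TPM at 0h to 1.98 and 0.163 TPM at 2h (-1.15, adjusted p = 0.0236, limma). At 20h it was at 0.764 and 0.721 TPM (-1.36, adjusted p = 0.025). Both calls were lost with the title code added (adjusted p = 0.236 and 0.292). Of the 12 settings tried for each, they held in 5 at 2h and 4 at 20h, and both were also lost in fits that left out 1 library. IM against 0h gave no call, with differences of 0.35, -0.80 and -1.44.

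Apoe was the most abundant of the 8 genes in IM and iMo at 0h, at 3148 and 2329 TPM in IM and at 1200 TPM in both iMo libraries, against 20.3, 31.5, 31.5 and 79.9 TPM in AM. The groups did not overlap. IM was above AM by 6.20 (SE 1.10, adjusted p = 9.98e-05, limma) and iMo by 4.89 (SE 1.10, adjusted p = 0.000956), a ratio of means of 67.1 and 29.4, and both calls held under every alternative. After LPS, IM held 321 and 883 TPM at 2h, 306 and 314 TPM at 6h, and 366 and 294 TPM at 20h. iMo held 969 and 566 TPM at 2h, 105 and 124 TPM at 6h, and 153 and 170 TPM at 20h. Every ip library of IM and iMo lay below both 0h libraries of its cell type. The 14 interstitial markers of IM, summed, were also lower after LPS (263 to 577 TPM at 2h and 6h, 2351 and 2386 TPM at 20h, against 4533 and 5068 TPM at 0h), and their part in the Apoe levels was not tested.

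Whether these differences in Apoe passed the test turned on the AM library A161219, since the 12 groups share an estimate of the spread and its 2933 TPM lie beside the 13.3 TPM of the other AM library of 20h. With it, the standard error was 1.27 and of the 6 differences from 0h only iMo at 6h was called (-2.91, adjusted p = 0.0479, limma). Without it, the standard error was 0.63 and 5 of the 6 were called: -1.55, -2.59 and -2.95 at 2h, 6h and 20h in IM (adjusted p = 0.00397, 0.000855 and 0.00153), and -2.91 and -2.58 at 6h and 20h in iMo (adjusted p = 0.000386 and 0.00221). iMo at 2h was at -0.27 either way. Within code Y, the difference from 2h to 6h in iMo was -2.61, with an adjusted p of 0.212 with the AM library and 0.00746 without it, and from 2h to 20h it was -2.33, with 0.229 and 0.0126. With the title code added and all 27 libraries, iMo at 6h was not called (-4.57, adjusted p = 0.0955).

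The same library set the comparison of Apoe between cell types at 20h. With both AM libraries, IM and iMo differed from AM by 0.44 and -0.50 (adjusted p = 0.783 and 0.90, limma). Without A161219 they were higher by 4.43 (adjusted p = 0.00013) and 3.49 (adjusted p = 0.00223), and without the other AM library, of code X, they were lower by -3.55 (adjusted p = 0.00672) and -4.48 (adjusted p = 0.000842). At 20h, then, the direction against AM turned with the AM library kept. The calls against AM at 2h, given next, held in 8 of the 13 settings tried for IM and in 10 of 13 for iMo. At 2h both were above AM by 4.26 (adjusted p = 0.0241 for IM and 0.0157 for iMo), calls lost without the code X library of AM at 2h (adjusted p = 0.164 and 0.127), and at 6h by 3.17 in IM (adjusted p = 0.0651, and 0.000541 without A161219 of AM at 20h).

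Apoc2, a cofactor of lipoprotein lipase, shared the cell type pattern of Apoe. At 0h AM held 0.866, 3.55, 0.692 and 6.29 TPM, IM 168 and 103 TPM, and iMo 291 and 296 TPM, with no overlap. IM was above AM by 5.37 (SE 0.63, adjusted p = 4.28e-07, limma) and iMo by 6.38 (adjusted p = 1.45e-08). At the ip times the differences were 4.14, 4.29 and 3.53 for IM and 4.47, 3.85 and 2.88 for iMo at 2h, 6h and 20h. Those at 20h moved with the AM library kept: without A161219 they were 5.24 and 4.59 (adjusted p = 6.65e-06 and 5.51e-05), and without the code X library 1.81 (adjusted p = 0.0421) and 1.17 (adjusted p = 0.209). All of these were called under every alternative except this last, iMo at 20h. In iMo, Apoc2 fell to 62.4 and 45.1 TPM at 2h (-2.02, adjusted p = 0.0124), 44.5 and 37.9 TPM at 6h (-2.32, adjusted p = 0.0058) and 44.8 and 56.6 TPM at 20h (-2.21, adjusted p = 0.0159). No iMo ip library overlapped its 0h libraries, but all 3 calls were lost with the title code added (adjusted p = 0.163, 0.139 and 0.223). Of the 13 settings tried for each, these calls held in 7 at 2h, 11 at 6h and 5 at 20h. Those at 2h and 20h were also lost in fits that left out 1 library. In IM it was called only at 2h (42.2 and 21.2 TPM, -1.31, adjusted p = 0.02), which was lost without A161219 of that group (-0.56, adjusted p = 0.127), with quantile normalization (-1.58, adjusted p = 0.0672) and with the title code added (-1.20, adjusted p = 0.288). From 2h to 20h Apoc2 in IM differed by 0.81, with an adjusted p of 0.111, and of 0.0482 without A161219 of AM at 20h.

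Apoc2 levels are uncertain for a reason of annotation. The table also lists Gm44805, a gene model that spans Apoc2 and Apoc4 on the same stretch, and over the 27 libraries its level was 0.753 to 1.13 times that of Apoc2 (median 1.08, r = 0.999), while Apoc4 was at most 2.97 TPM. Reads of Apoc2 and Gm44805 cannot be told apart in the table.

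Apoc1, which slows the uptake and transfer of lipoprotein lipid, behaved differently from Apoe and Apoc2 at 0h: AM held 11.4 to 31.9 TPM, IM 27.7 and 11.7 TPM and iMo 39.1 and 31.4 TPM, and no pair was called. After LPS it was low in IM, at 3.58 and 1.14 TPM at 2h, 2.02 and 2.44 TPM at 6h and 2.40 and 2.79 TPM at 20h. In iMo it was at 4.03 and 3.53 TPM at 2h and 1.54 and 2.21 TPM at 6h, and at 20h it was listed at 0 in A161219 and was at 1.30 TPM in B161219. Every ip library of the 2 cell types lay below all of its 0h libraries. The differences from 0h were -1.82, -2.03 and -2.32 in IM (SE 0.51, adjusted p = 0.000275, 0.000735 and 0.00186, limma) and -2.49, -3.17 and -4.26 in iMo (adjusted p = 0.000169, 2.06e-05 and 2.26e-06). With the title code added, iMo at 20h remained (-3.61, adjusted p = 0.0138) and the other 5 were lost (adjusted p from 0.0588 to 0.483). Within the ip libraries of iMo, Apoc1 fell from 2h to 20h by 1.79 (adjusted p = 0.0199), a call lost on leaving out A161219 at 20h (-1.17, adjusted p = 0.272), the library listed at 0, or either library of 2h.

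After LPS, Apoc1 was also lower in IM and iMo than in AM. The differences were -1.42 for IM at 2h (adjusted p = 0.00106, limma), -1.54 for IM at 6h (adjusted p = 0.0024), -1.28 for iMo at 2h (adjusted p = 0.0165), -1.87 for iMo at 6h (adjusted p = 0.00125) and -2.12 for iMo at 20h (adjusted p = 0.00813). IM at 2h stayed called but moved to -2.25 without its code X library and to -0.60 without its A161219 library. iMo at 2h was lost without AM B161219 (-1.09, adjusted p = 0.224), and iMo at 20h without the code X library of AM (-1.64, adjusted p = 0.176) or iMo A161219 (-1.51, adjusted p = 0.183). IM at 20h was not called (-0.96, adjusted p = 0.389).

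Trem2 was present in all 3 cell types at 0h and low in IM and iMo after LPS. At 0h AM held 28.3, 45.3, 31.9 and 41.2 TPM, IM 79.4 and 70.5 TPM, and iMo 56.0 and 54.6 TPM. Both other types lay above all AM libraries, but neither difference was called (1.03, adjusted p = 0.248, and 0.46, adjusted p = 0.508, limma). IM held 5.94 and 16.1 TPM at 2h, 32.1 and 8.54 TPM at 6h, and 5.79 and 4.71 TPM at 20h, all below its 0h libraries. iMo held 20.1 and 10.6 TPM at 2h, 5.19 and 8.0 TPM at 6h, and 8.78 and 5.65 TPM at 20h, also all below. The means at 20h were 14.3 times lower than at 0h in IM and 7.66 times lower in iMo.

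These falls in Trem2 were called at all 6 times: -2.0, -1.56 and -3.51 in IM (SE 0.71, adjusted p = 0.00255, 0.0332 and 0.000889, limma) and -1.42, -2.43 and -2.49 in iMo (adjusted p = 0.0486, 0.00378 and 0.00686). With the title code added only IM at 20h remained (-4.18, adjusted p = 0.0488), and the other 5 had adjusted p-values from 0.0621 to 0.311. IM at 6h rested on A161219 of that group (-0.47 without it, adjusted p = 0.293), and iMo at 2h was lost with quantile normalization (-1.24, adjusted p = 0.186) and on leaving out any of its 4 libraries. The summed IM markers that were low at 2h and 6h were partly back at 20h, but unevenly. In IM, C1qb was at 1039 and 952 TPM at 20h, against 1133 and 1035 TPM at 0h. Folr2 was at 21.3 and 26.4 TPM at 20h, against 186 and 185 TPM at 0h. iMo at 20h also held C1qb, at 1014 and 898 TPM. The Trem2 mean of IM was lowest at 20h, and the part of these markers in this was not tested.

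In AM, Trem2 was at 24.1 and 72.9 TPM at 2h, 26.0, 25.2 and 38.0 TPM at 6h, and 31.3 TPM (code X) and 313 TPM (A161219) at 20h. The last exceeds every IM library (at most 79.4 TPM) and every iMo library (at most 56.0 TPM). IM was below AM at 20h by -4.25 (adjusted p = 0.00016, limma) and iMo by -3.80 (adjusted p = 0.00059), and without A161219 by -2.46 (adjusted p = 0.013) and -2.01 (adjusted p = 0.0421), so the call held and the size changed. At 6h iMo was below AM (-1.79, adjusted p = 0.0204), lost without AM B161219 (-1.68, adjusted p = 0.0693) or either iMo library. At 2h IM was below AM (-1.21, adjusted p = 0.0217), lost without AM B161219 (-0.80, adjusted p = 0.282) or the code X library of IM (-0.84, adjusted p = 0.22). iMo at 2h differed from AM by -1.17, with an adjusted p of 0.106, and of 0.0326 without A161219 of AM at 20h.

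**Figure D4:**
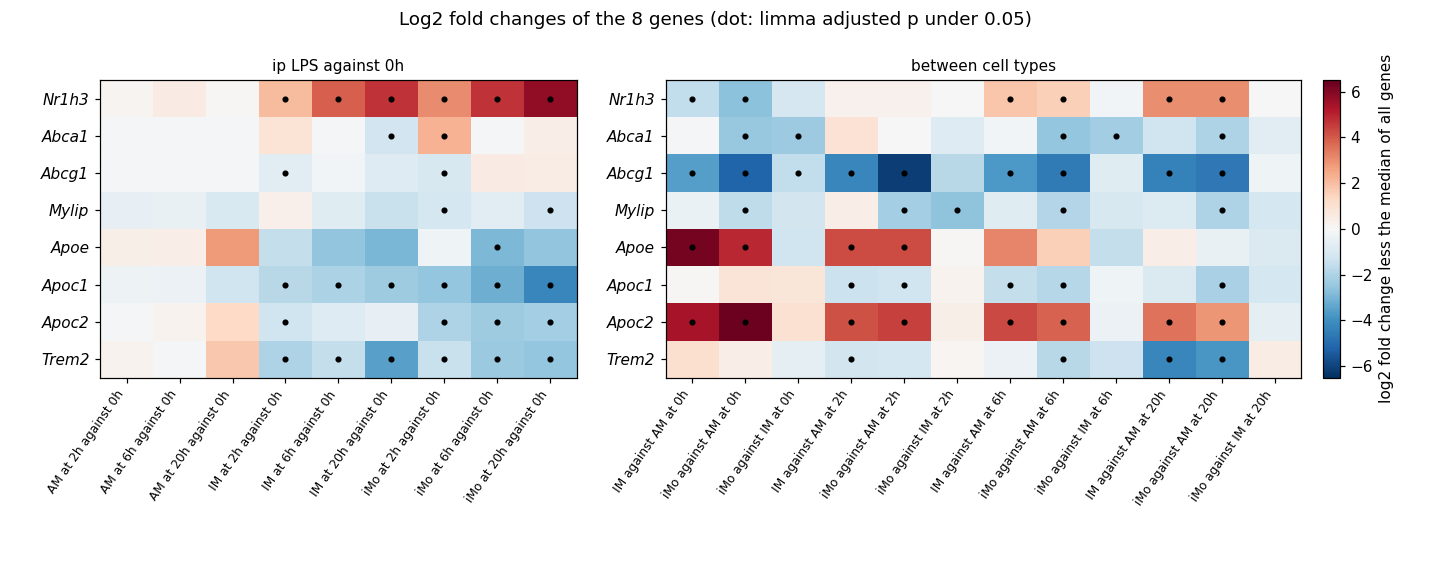
Log2 fold changes of the 8 genes less the median of all genes, for each ip time against 0h (left) and for each pair of cell types (right); colour gives direction and size, and a dot marks an adjusted p under 0.05 (limma). Nr1h3 is the only row that is higher in all 6 columns of IM and iMo against 0h with a dot in each. Its dot for IM at 2h held in 4 of the 13 settings tried for that call. The 3 AM columns hold no dot, and the Abcg1 row is lower with a dot in all 8 comparisons of IM or iMo with AM.

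Counted together, 0 of the 8 genes were called in AM at 2h, 6h or 20h against 0h, where 0.134%, 1.3% and 0.112% of all genes tested were called (limma). At an unadjusted p under 0.05 the counts were 0, 0 and 4. The 4 at 20h were Mylip (-1.01), Apoe (2.79), Apoc1 (-1.29) and Trem2 (1.75), and without A161219 of AM at 20h Apoe was at -1.19 and Trem2 at -0.03. Between the ip times of AM, 0 of 8 were called from 2h to 6h (0% of all genes called), from 6h to 20h (0.0336%) and from 2h to 20h (0.0224%), with 0, 2 and 1 at an unadjusted p under 0.05. Inside title code X, with 1 AM library at each time and so no test, Nr1h3 was at 17.4, 21.4, 23.5 and 20.3 TPM and Abcg1 at 242, 188, 207 and 227 TPM at 0h, 2h, 6h and 20h.

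In IM, 5 of 8 were called at 2h against 0h (48.7% of all genes), 3 at 6h (25.5%) and 4 at 20h (12.4%). In iMo, 7 of 8 were called at 2h (32.4% of all genes), 5 at 6h (29.1%) and 5 at 20h (22.2%). Nr1h3 was the higher gene each time, joined by Abca1 in iMo at 2h, and all others called were lower. Over the 9 comparisons with 0h this is 29 of 72 tests, and 7 of 72 with the title code added: Nr1h3 at 6h and 20h in IM and at each time in iMo, Trem2 in IM at 20h and Apoc1 in iMo at 20h. Between the ip times, IM had 1 of 8 from 2h to 6h (7.21% of all genes), 0 from 6h to 20h (4.7%) and 2 from 2h to 20h (39%), and iMo 3 (8.12%), 0 (4.03%) and 4 (25%). The 0 counts from 6h to 20h stood beside 2 of 8 in IM and 1 of 8 in iMo at an unadjusted p under 0.05.

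Between cell types at 0h, IM differed from AM in 4 of 8 genes (26% of all genes), iMo from AM in 6 of 8 (29.6%) and iMo from IM in 2 of 8 (7.06%), the latter being Abca1 and Abcg1, both lower in iMo. Abcg1 in that pair differed by -1.62 (adjusted p = 0.0261, limma), lost on leaving out 3 of its 4 libraries in turn. After LPS, IM differed from AM in 5 genes at 2h (54.6%), 4 at 6h (35.9%) and 4 at 20h (18.5%), and iMo from AM in 5 (39.9%), 7 (29.1%) and 7 (16.9%). iMo differed from IM in 1 gene at 2h (2.45%; Mylip, -2.60, adjusted p = 0.025), 1 at 6h (3.21%; Abca1, as above) and 0 at 20h (1.25%, with 2 of 8 at an unadjusted p under 0.05). The Mylip call was lost without A161219 of IM (-2.53, adjusted p = 0.107) or B161219 of iMo (-2.03, adjusted p = 0.145), and that of Abca1 at 6h without the code X library of IM (-1.75, adjusted p = 0.0615).

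Whether the course after LPS differed between cell types was tested directly, with a limma F test on the differences at 2h, 6h and 20h together. Between IM and AM, 3 of 8 genes differed (26.5% of all genes): Nr1h3 (adjusted p = 0.000137), Trem2 (adjusted p = 0.00328) and Apoc1 (adjusted p = 0.033). Between iMo and AM, 5 of 8 differed (17.3% of all genes): Nr1h3 (adjusted p = 2.81e-05), Apoc1 (adjusted p = 0.00434), Trem2 (adjusted p = 0.0155), Abca1 (adjusted p = 0.0192) and Apoc2 (adjusted p = 0.037). Apoc1 between IM and AM, and Apoc2, Abca1 and Trem2 between iMo and AM, were each lost on leaving out at least 1 library, with adjusted p-values up to 0.16 for Apoc1 and 0.132 for Apoc2. Between iMo and IM, 0 of 8 were called (3.75% of all genes), with an unadjusted p under 0.05 for Abca1 (0.0104) and Apoc1 (0.0297). The response of Nr1h3 in IM exceeded that in AM by 1.10, 3.01 and 4.85 at 2h, 6h and 20h, and in iMo by 2.47, 3.84 and 5.69, before any subtraction of medians. The response of Apoe missed the threshold against AM in both (adjusted p = 0.0743 and 0.0772) and passed it without A161219 of AM at 20h (adjusted p = 0.0156 and 0.015).

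As a description over the 27 libraries, which share groups and title codes, Nr1h3 was correlated with its target genes at r = -0.29 for Abca1, -0.15 for Abcg1, -0.42 for Mylip, -0.23 for Apoe, -0.72 for Apoc1 and -0.00309 for Apoc2. Apoe and Apoc2 were correlated at 0.84, and Abcg1 and Apoc2 at -0.86. Apart from other members, the genes most like Abcg1 were Cyb561a3, Mgll and Hebp1 (r = 0.98 for each), and those most like Apoc2 were S100a4, S100a6 (0.97 for each) and Cd300a (0.96). For Mylip they were Nedd9, Txnip (0.93 for each) and Arrdc4 (0.91), for Apoc1 Akap7 (0.92), Aamdc (0.89) and Cdadc1 (0.88), and for Apoe Cpq (0.89), Apobec1 (0.87) and Itgb7 (0.85). Abca1 was most like Cd200 (0.85), Ttc39b (0.81) and Mgat4a (0.79), and Trem2 most like Ctsa (0.83), Ccdc28a (0.80) and Rab11b (0.79).

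Of the partners and corepressors of LXR, 7 were tested. Rxra, encoding an RXR subunit, was lower than in AM at 0h in IM (-2.06, adjusted p = 0.000551, limma) and in iMo (-2.41, adjusted p = 0.000188). Against 0h, 4 of the 7 fell in IM at 2h (40.8% of all genes fell) and 0 were called in IM at 20h, where 4.05% of all genes rose and 8.39% fell. In iMo, 1 rose and 2 fell at 2h, where 8.41% of all genes rose and 24% fell. At 20h the corepressor gene Ncor1 fell in iMo (-0.76, adjusted p = 0.0208, limma). From 2h to 20h, 3 of 7 rose in both cell types, beside 31.8% of all genes in IM and 14.7% in iMo, among them Rxra by 0.88 and 1.90 and Rxrb by 0.88 and 1.14.

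Of 11 other LXR targets tested, 3 rose in iMo at 20h against 0h, beside 7.39% of all genes: Mertk, a receptor for engulfing dying cells (3.02), Lpl, lipoprotein lipase (2.50), and Fasn, fatty acid synthase (2.45). Smpdl3a, a phosphodiesterase gene, fell there (-1.51). In IM at 20h, 0 of the 11 rose and 2 fell, where 4.05% of all genes rose and 8.39% fell. The 2 were the phospholipid transfer protein gene Pltp (-2.70) and the desaturase gene Scd1 (-1.49). At 2h, 7 of the 11 fell in IM (40.8% of all genes fell) and 4 in iMo (24% of all genes fell), and 0 rose in either. From 2h to 20h, 5 of 11 rose in IM (31.8% of all genes rose), among them Lpl (2.22), Mertk (1.91) and Scd2 (1.39), and 4 in iMo (14.7% of all genes rose), among them Lpl (2.49), Mertk (2.32) and Scd2 (1.67), and 0 fell in either. In AM against 0h, 1 of the 11 was called at any time, Scd1 at 6h (1.39, adjusted p = 0.043, limma), where 1.3% of all genes were called.

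At 0h, several sterol and lipid genes differed between AM and the other cell types. The cholesterol 25-hydroxylase gene Ch25h, whose product makes an oxysterol, was lower than in AM in IM (-3.49) and iMo (-4.76), and the mitochondrial sterol hydroxylase gene Cyp27a1 was higher (3.81 and 4.19). Of 12 lipid-associated macrophage genes, 8 were lower in IM than in AM, beside 11% of all genes, among them Gpnmb (-3.35), Spp1 (-3.16), Cd9 (-3.10) and Fabp5 (-2.82). In iMo 9 of the 12 were lower, beside 13.4% of all genes, among them Cd9 (-7.34), Spp1 (-6.19), Gpnmb (-5.89) and Cd63 (-4.94), and 0 were higher in either. Of 5 tested lipoprotein and sorting receptors, Sorl1 was higher in IM (4.99) and iMo (4.57), beside 15% and 16.2% of all genes. Sort1 (-3.23 and -2.87), Lsr (-2.36 and -2.12) and Lrp1 (-1.46 and -1.78) were lower, beside 11% and 13.4% of all genes.

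After LPS, Cyp27a1 was lower at 20h than at 0h in IM (-2.50) and iMo (-2.70). In iMo at 2h, 4 of 10 tested sterol synthesis genes rose and 1 fell, where 8.41% of all genes rose. Among them the sterol regulator gene Srebf2 rose by 2.44 and Insig1 by 1.53, while Scap fell by 1.24. In iMo, Insig1 then fell from 2h to 20h (-1.33).

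Of 9 tested genes of TREM2 signalling, 4 fell and 1 rose in IM at 2h, where 40.8% of all genes fell, and 3 fell and 1 rose in iMo at 2h, where 24% of all genes fell. The adaptor gene Tyrobp fell in iMo at 2h (-1.56, adjusted p = 0.0129, limma) and 20h (-1.61, adjusted p = 0.0233), and the related adaptor gene Hcst by -2.41 and -1.69. At 20h, 0 of the 9 were called in IM (12.4% of all genes) and 2 of the 9 in iMo (22.2% of all genes). Trem1, encoding a receptor of the same family that amplifies inflammation, rose at 20h against 0h in IM (1.66, adjusted p = 0.0291) and iMo (2.00, adjusted p = 0.0136), where Trem2 fell.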

How the data were processed

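RNA of sorted mouse lung cells was sequenced, and the authors deposited TPM values per gene for the whole series, with reads aligned to mm10 by STAR and HOMER also named, per the submitters' processing notes; the sources used here give no version, annotation or strand. TPM keeps no read depth, so the depth behind each value is unknown. The 27 columns of 0h and ip LPS summed to 331473 to 551635 TPM. Columns of intranasal LPS were not used: their gene names did not match their values (Actb median 0 TPM, against 3721 TPM in the columns used). The last time is taken from the sample titles as 20h.

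Values were taken as log2(TPM + 1), genes were kept that reached 5 TPM in 2 or more libraries, and limma 3.58.1 in R 4.3.3 was fitted once over 12 groups and 27 libraries (15 residual degrees of freedom), with a mean-variance trend and Benjamini-Hochberg adjustment within each of 30 comparisons and 3 F tests. On simulated data of 8937 genes with 200 changed, the test of iMo at 20h against 0h recovered 75.5% of 4-fold and 94% of 8-fold changes, and 0% of 2-fold changes. The genes named are the 8 members, the 3 genes most correlated with each, and called genes of pathway lists. The members and lists were chosen with earlier results of these data known. Alternatives changed the pseudocount, filter, scaling, weights, covariates and libraries.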

Additional observations from a re-analysis of the deposited data

Results flagged for a closer look

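The course after ip LPS differed between cell types, by the limma F test over 2h, 6h and 20h with Benjamini-Hochberg adjustment over 8937 genes, for these genes. Between IM and AM these were Nr1h3 (adjusted p = 0.000137), Trem2 (adjusted p = 0.00328) and Apoc1 (adjusted p = 0.033). Between iMo and AM they were Nr1h3 (adjusted p = 2.81e-05), Apoc1 (adjusted p = 0.00434), Trem2 (adjusted p = 0.0155), Abca1 (adjusted p = 0.0192) and Apoc2 (adjusted p = 0.037). Nr1h3 in both pairs, Trem2 between IM and AM and Apoc1 between iMo and AM passed under every alternative tried. The others were each lost under at least 1: Trem2 between iMo and AM had an adjusted p of 0.0664 in the fit with replicate block, and Abca1 0.105 with a pseudocount of 5. AM at 0h, the single group with 4 libraries, held no value of these 8 genes far enough from the others to be listed as an outlier, and the groups of 2 and 3 libraries, AM at 20h among them, were too small for that check.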

How the results depend on the processing

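Of 72 tests against 0h, 29 were called, 7 with the title code added and 6 with the replicate block (title letter and code). Deviations from group means were correlated over 0.1 in 28 of 62 pairs of libraries with the same title label and in 53 of 270 with different labels. Within code X this held for 13 of 15 pairs. By the rule that every pair exceed 0.1, the labels as a whole did not pair the samples. In a group of 2 libraries the 2 deviations mirror each other, so the same r recurs and these are not independent pairs. There, a deviation of code X is equally one of code Y. Leaving out 1 library gave 22 to 37. Of 72 tests between ip times 10 were called, and 6 (without B161219 of iMo at 2h) to 16 (without the code X library of AM at 20h) on leaving out 1 library. Of 24 tests of a difference in course, 8 were called, 5 with no filter on low values and 6 to 11 on leaving out 1 library. Cell type pairs gave 12 of 24 at 0h (10 to 13 on leaving out 1 library) and 34 of 72 after LPS (31 to 37). The causes were not tested. Of the single calls counted here, 0 changed direction under these settings. The number lost was 9 with a pseudocount of 0.1 TPM, 13 with 5 TPM, 12 with no filter, 9 with quantile normalization, 6 after rescaling without Rn45s and Lars2, 6 with array weights, 22 with the title code and 24 with the replicate block, and 280 fits that left out a library kept a call that 91 lost. Calls that held in every setting numbered 9 of 12 at 0h, 21 of 34 between cell types after LPS, 5 of 29 against 0h and 3 of 10 between ip times. With 2 libraries in most groups, simulated 2-fold changes were recovered in 0% to 9% of genes.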
